A study of Mus musculus with 10 samples.

Results

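The genes described here are 10 mouse neuropeptide precursors (Tac1, Sst, Npy, Penk, Cck, Calca, Calcb, Gal, Adcyap1 and Nts), out of 48964 genes with counts. Tac1 was chosen by its higher counts in the mutant samples of these data, so its difference between the groups is given as a description without a test. The other 9 are well-known precursors of neurons of the spinal cord and its sensory input, and the question was whether they moved with Tac1. Of the 10 members, 8 passed the filter on low counts that left 17830 genes for testing, and Calcb and Nts did not. The control samples alone would not have let Tac1 pass that filter.

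RNA was sequenced from YFP-positive cells, sorted from dissociated spinal cord of mouse embryos at e10.5, in 5 control and 5 cdKO samples. All 10 samples carried Olig2-Cre+/- and Rosa26R-YFP+/-, so that cells in which Olig2-Cre has been active are marked by YFP. Control samples had Oc1+/Flox and Oc2+/Flox, and cdKO samples had Oc1-/Flox and Oc2-/Flox, where Oc1 and Oc2 (Onecut1 and Onecut2) are transcription factors of developing motor neurons. The study's description of the line places YFP in motor neurons, in V3 interneurons and in cells of the brain, and Cre is present in both groups. The sources used here do not say whether each sample is 1 embryo, 1 litter or a pool, so that p-values measure only the spread between these samples.

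Neuropeptides are cut from larger precursor proteins inside secretory granules and act on G protein-coupled receptors of nearby or distant cells. Tac1 encodes the precursor of substance P and neurokinin A, 2 tachykinins best known in the spinal cord from the terminals of small-diameter sensory neurons and from dorsal horn interneurons. Sst, Npy, Penk and Gal mark interneuron or sensory classes in the mature cord, and Calca and Calcb encode calcitonin gene-related peptides (CGRP), present in sensory neurons and in motor neurons.

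The deposited values are raw counts on exon bins, the non-overlapping pieces into which the exons of a gene are divided. A read was counted on each bin that it overlapped, so a gene's sum over bins counts read-bin overlaps, not reads. The smallest and largest totals were 63932395 and 107709534 for control and 72315782 and 84249157 for cdKO. Gene sums were scaled to the TMM-adjusted library size and are given as CPM, and 3 counts correspond to between 0.0288 and 0.0591 CPM, a limit that covers counting error only. The first exon of Onecut1 (chr9:74861921-74863401) had 125, 80, 205, 210 and 63 counts in control replicates 1 to 5 and 0, 17, 0, 3 and 0 in cdKO replicates 1 to 5. Onecut3 had 29 to 68 counts in control and 0 to 3 in cdKO samples. Counted over the whole gene, both Onecut1 and Onecut2 overlapped between the groups. Onecut1 had 235 to 733 counts in control and 81 to 288 in cdKO samples (log2 fold change -1.11, or -1.34 without cdKO replicate 5). Onecut2 had 103 to 636 counts in control and 106 to 974 in cdKO samples (log2 fold change 0.52, or -0.31 without cdKO replicate 5). The study's supplement ascribes the Oc2 sequences it detected to truncated transcripts that give no functional peptide. One library, cdKO replicate 5, stood apart. It had counts on 198569 bins, where cdKO replicates 1 to 4 had 254982 to 264487 and controls 243970 to 271591. The 2551 tested genes with at most 1000 bases of exon bins were a median of 0.88 higher in it, on the log2 scale, than in the mean of the other cdKO samples, whereas the 5257 genes of 4000 to 8000 bases were a median of 0.41 lower (log2 difference -0.41). Fold changes that move strongly with this sample are therefore given with and without it.

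Tac1 (ENSMUSG00000061762) lies on the plus strand of chromosome 6 (chr6:7554879-7565834, GRCm38), and no other annotated gene overlaps it. Its 7 exons are joined in several splice forms, and the peptides that can be made depend on exons 4 and 6. Exon 3 encodes substance P and exon 6 encodes neurokinin A. The alpha form lacks exon 6 and keeps substance P alone, the gamma form lacks exon 4, and the beta form has all 7 exons. The 3 exons are shown because the reads on them bear on which peptides the transcripts encode. Sequences are from the GENCODE M21 transcripts of GRCm38, plus strand, written 5′ to 3′, and capitals mark the codons of the short ending that tachykinin peptides share. This tachykinin signature was found once in exon 3 and once in exon 6, and these letters are not in exon 4.
Tac1 exon 3, chr6:7556684-7556780: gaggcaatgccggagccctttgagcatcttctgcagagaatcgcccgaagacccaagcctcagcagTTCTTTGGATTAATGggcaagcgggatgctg
Tac1 exon 4, chr6:7557216-7557260: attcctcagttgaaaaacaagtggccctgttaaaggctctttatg
Tac1 exon 6, chr6:7559099-7559152: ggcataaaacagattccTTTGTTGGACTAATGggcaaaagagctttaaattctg

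Tac1 was close to undetected in control cells and present in every cdKO sample. Control replicates 1 to 5 had 19, 25, 7, 3 and 0 summed counts, and cdKO replicates 1 to 5 had 437, 91, 369, 85 and 1023. In CPM the control samples had 0.191, 0.240, 0.0796, 0.0407 and 0, and the cdKO samples 5.55, 1.08, 4.54, 1.01 and 20.2. The groups did not overlap, and the lowest cdKO sample lay above the highest control sample. Within the cdKO group, replicate 5 was highest and replicates 2 and 4 were lowest. The control mean was 0.110 ± 0.102 CPM (SD, n = 5) and the cdKO mean 6.47 ± 7.92 CPM (SD, n = 5), a ratio of 58.7, which was 27.6 without cdKO replicate 5. The fitted log2 fold change was 5.81 with a standard error of 1.04, and 4.72 without cdKO replicate 5. It ranked 1 of the 17830 genes tested by log2 fold change. In 32 genes, 0.179% of those tested, all cdKO samples lay above all control samples, and among these the gene after Tac1 in size, the predicted gene Gm14327, reached 2.63 on the log2 scale. These values describe the contrast that put Tac1 on the list.

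**Figure D1:**
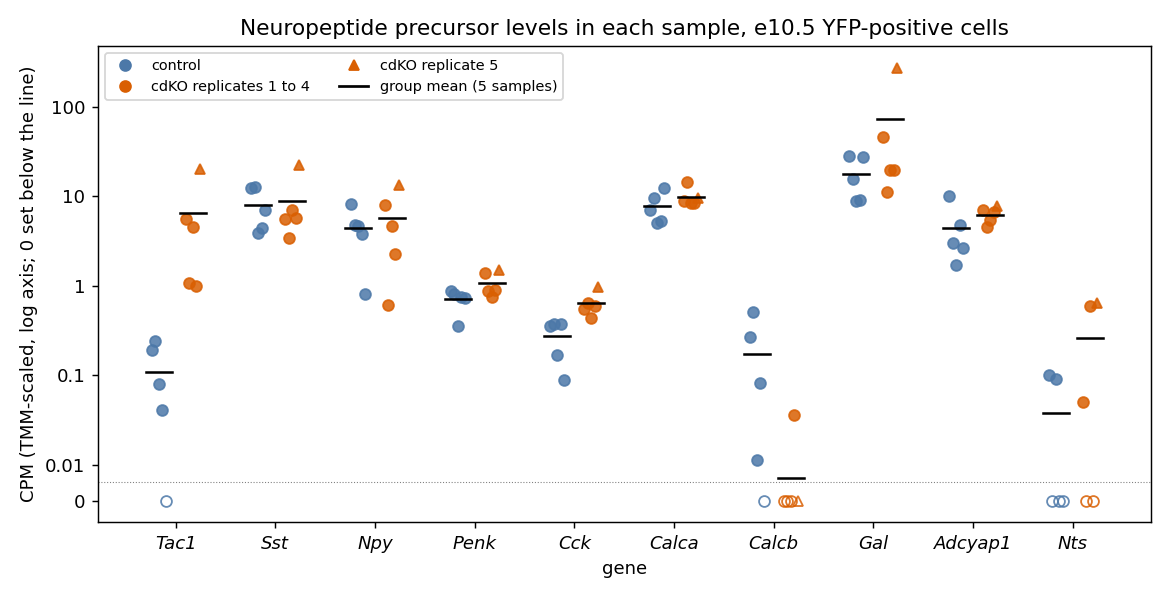
Level of each of the 10 precursors in each sample, in TMM-scaled CPM on a log axis with 0 set below the dotted line; blue circles are control samples, orange circles cdKO replicates 1 to 4, orange triangles cdKO replicate 5, and black lines group means over 5 samples. The Tac1 groups are apart (0 to 0.240 against 1.01 to 20.2 CPM), whereas the Gal groups overlap and cdKO replicate 5 lies at 275 CPM.

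The rise was spread over the whole transcript. Of the 16 bins of Tac1, 13 had counts, 12 had counts in every cdKO sample, and in 10 all cdKO samples lay above all control samples in CPM. Taking for each exon the bin with the most counts, exon 1 had 21, 8, 18, 7 and 30 counts in cdKO replicates 1 to 5 and exon 2 had 43, 13, 31, 13 and 80. Exon 3, which encodes substance P, had 48, 8, 31, 12 and 101, and exon 5 had 42, 7, 30, 4 and 68. Exon 7, the last and longest, had 72, 13, 68, 17 and 215, and its 4 bins together held 46.3% of the gene's counts in cdKO samples. In control samples the sums over the 5 samples were 2 for exon 1, 3 for exons 2 and 3, 4 for exon 5 and 14 for exon 7. Each of these exons was higher in every cdKO sample than in every control sample. The pieces outside the 7-exon form were empty: a bin of 297 bases between exons 2 and 3 and the last 1857 bases of the annotated locus had 0 counts in all samples, and a bin of 15 bases before exon 7 had 1 count, in cdKO replicate 5.

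Exon 4 was covered less than its neighbours and exon 6 was not. Exon 4, of 45 bases, had 14, 1, 7, 2 and 26 counts in cdKO replicates 1 to 5, a sum of 50, against 200 for exon 3 and 151 for exon 5, which is only 24 bases long. Relative to the mean of exons 3 and 5, exon 4 was at 0.311, 0.133, 0.23, 0.25 and 0.308 in the 5 cdKO samples and at 0.285 in their sum. It was below its neighbours in 5 of 5 cdKO samples, and the pooled ratio stayed between 0.264 and 0.297 when each sample was left out. Exon 6, of 54 bases, which encodes neurokinin A, had 37, 8, 32, 4 and 92 counts. Its ratio to the mean of exons 3 and 5 was 0.822, 1.07, 1.05, 0.5 and 1.09, and 0.986 in the sum, with the lowest ratio resting on 4 counts. The exon of neurokinin A was therefore counted about as often as its neighbours, whereas exon 4, which the gamma form lacks, was counted less often in each cdKO sample. With 3 counts on exon 4 and 3 on exon 6 over all 5 control samples, the ratios could not be compared between the groups. The counts are overlaps with exons of unequal length and do not by themselves give the share of each splice form.

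**Figure D2:**
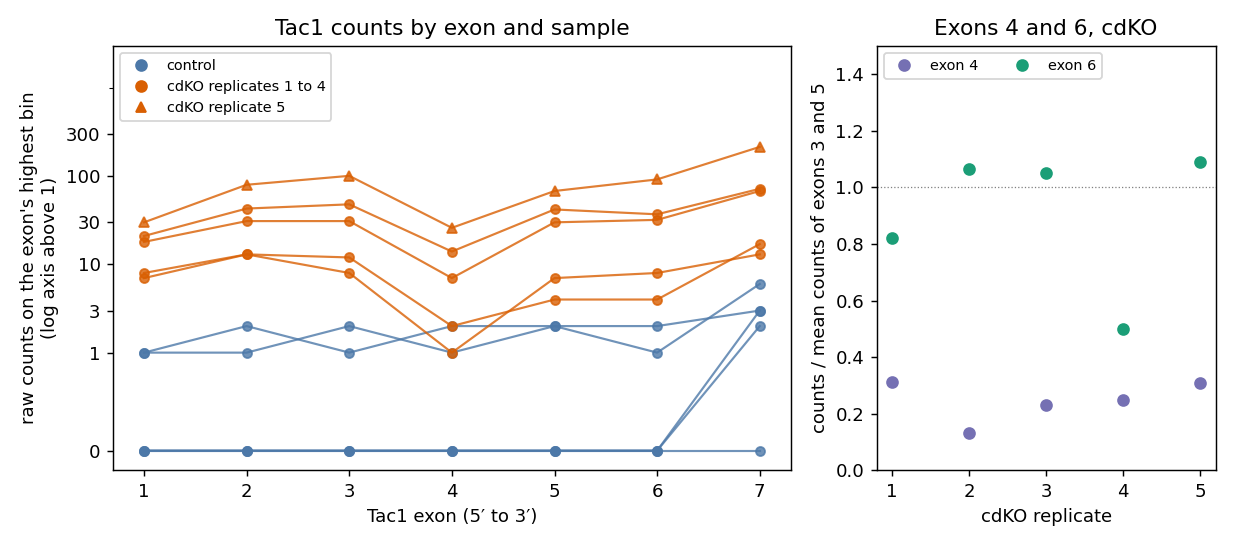
Left, raw counts on the highest bin of each of the 7 Tac1 exons, 5′ to 3′, in each sample (log axis above 1 count; blue control, orange cdKO, triangles cdKO replicate 5). Right, counts on exon 4 and exon 6 divided by the mean of exons 3 and 5 in each cdKO sample, where exon 4 lies between 0.133 and 0.311 and exon 6 between 0.5 and 1.09, and the dotted line marks a ratio of 1.

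None of the other precursors passed the test. With edgeR's quasi-likelihood test and adjustment by Benjamini-Hochberg over all genes, 0 of the 7 other tested members had an adjusted p under 0.05, as had 0 of all 17830 genes (0%). The same test gave unadjusted p-values under 0.05 for 743 genes higher in cdKO samples (4.17%) and for 147 lower (0.824%), or 2.14% and 1.41% when scaled by library size only. Of the 7 members 2 were among them, Gal and Cck, both higher. DESeq2 gave 19 genes and limma-voom 3 with an adjusted p under 0.05, and neither gave any of the 7 other members. All 7 log2 fold changes were positive, with a median of 0.49 beside -0.02 over all genes tested. Without cdKO replicate 5, 5 of the 7 were positive, their median was 0.40 and none had an unadjusted p under 0.05. Apart from Tac1, all cdKO samples lay above all control samples in 1 of the 7 tested members, Cck, as in 32 of all genes tested (0.179%). No member had all cdKO samples below all control samples, as 40 genes did (0.224%).

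Gal encodes galanin, a peptide of sensory and other neurons that is known to rise after nerve injury. Its level was 28.4, 15.6, 8.95, 9.02 and 27.5 CPM in control replicates 1 to 5 and 45.6, 11.3, 19.7, 19.8 and 275 in cdKO replicates 1 to 5. The groups overlapped, and cdKO replicate 5 lay far above the other 9 samples. The means were 17.9 ± 9.58 and 74.2 ± 113 CPM (SD, n = 5 each), and the log2 fold change was 2.05 with a standard error of 0.79 (edgeR's quasi-likelihood test, unadjusted p = 0.0215, Benjamini-Hochberg adjusted p = 0.939). Without cdKO replicate 5 it was 0.44, and the ratio of the means was 1.35 in place of 4.15. With 712 bases of exon bins Gal is a short gene, and it was 3.66 higher in this sample than in the mean of the other cdKO samples on the log2 scale.

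Cck, the precursor of cholecystokinin, was low in all samples. It had 36, 39, 15, 28 and 6 counts in control samples and 44, 54, 36, 50 and 50 in cdKO samples. In CPM these were 0.361, 0.374, 0.171, 0.380 and 0.0887 against 0.559, 0.643, 0.443, 0.596 and 0.985. The lowest cdKO sample lay above the highest control sample by a small margin, and the counts themselves overlapped. The means were 0.275 ± 0.136 and 0.645 ± 0.204 CPM (SD, n = 5 each), a ratio of 2.35, or 2.04 without cdKO replicate 5. The log2 fold change, 1.22 with a standard error of 0.51, did not pass edgeR's quasi-likelihood test after Benjamini-Hochberg adjustment (unadjusted p = 0.0328, adjusted p = 0.939). In none of the bins of Cck taken singly did the groups separate.

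Sst encodes somatostatin, an inhibitory peptide of interneurons. Control samples had 12.3, 12.6, 3.86, 4.46 and 7.13 CPM, and cdKO samples had 5.53, 3.45, 7.09, 5.72 and 22.2. The groups overlapped, with cdKO replicate 5 highest and cdKO replicate 2 lowest. The log2 fold change was 0.12 with a standard error of 0.52 (edgeR's quasi-likelihood test, Benjamini-Hochberg adjusted p = 0.999), and it was -0.56 without cdKO replicate 5. Npy, which encodes neuropeptide Y, had 8.24, 4.76, 4.65, 3.76 and 0.813 CPM in control samples and 7.95, 0.607, 4.68, 2.29 and 13.4 in cdKO samples. Its groups also overlapped from end to end, with medians of 4.65 and 4.68 CPM. Its log2 fold change was 0.38 with a standard error of 0.69 (adjusted p = 0.997 in the same edgeR test), and -0.20 without cdKO replicate 5. Sst and Npy, of 599 and 566 bases, were 1.97 and 2.03 higher on the log2 scale in that sample than in the mean of the other cdKO samples.

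Penk, the precursor of the enkephalins, had 0.884, 0.816, 0.353, 0.759 and 0.725 CPM in control samples and 1.4, 0.881, 0.762, 0.906 and 1.5 in cdKO samples. The ranges met over a short interval, and 3 of 5 cdKO samples lay above every control sample. The log2 fold change was 0.62 with a standard error of 0.41 (edgeR's quasi-likelihood test, unadjusted p = 0.154, Benjamini-Hochberg adjusted p = 0.979). The locus overlaps that of the long non-coding RNA A830012C17Rik, and strand was not used in the counting. Adcyap1 encodes the peptide PACAP, which is made by sensory, autonomic and developing neurons. It had 10.1, 2.99, 1.71, 4.83 and 2.65 CPM in control samples and 7.14, 4.52, 5.40, 6.62 and 7.73 in cdKO samples, so that the cdKO values lay inside the control range. Its log2 fold change was 0.49 with a standard error of 0.45 and an adjusted p of 0.997 in the edgeR test. Control replicate 1 was its highest sample, and without it the log2 fold change was 1.04 with a standard error of 0.39 and an adjusted p of 0.972.

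Calca encodes calcitonin and a CGRP. It had 6.97, 9.54, 5.06, 5.38 and 12.5 CPM in control replicates 1 to 5 and 9.0, 14.5, 8.42, 8.42 and 9.5 in cdKO replicates 1 to 5. The groups overlapped, and the means were 7.89 ± 3.12 and 9.96 ± 2.57 CPM (SD, n = 5 each). Its log2 fold change was 0.34 with a standard error of 0.33 (edgeR's quasi-likelihood test, Benjamini-Hochberg adjusted p = 0.997), and 0.36 without cdKO replicate 5. Calcb, which encodes a second CGRP, had 27, 53, 1, 6 and 0 counts in control samples and 0, 0, 0, 3 and 0 in cdKO samples. Its counts came almost wholly from control replicates 1 and 2, and it was not tested. The sources used here do not say how reads shared by Calca and Calcb were treated. Nts, the precursor of neurotensin, had 10, 0, 8, 0 and 0 counts in control samples and 4, 0, 49, 0 and 33 in cdKO samples. It was listed at 0 in 5 of the 10 samples and was not tested.

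**Figure D3:**
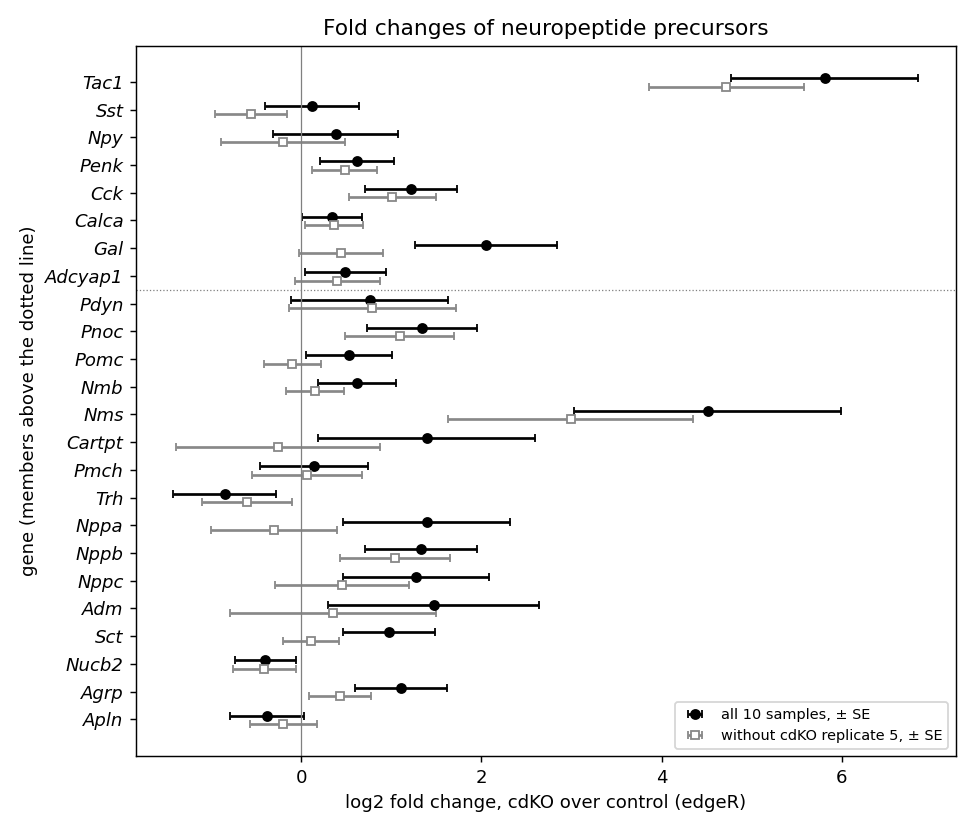
Log2 fold change of cdKO over control with its standard error for the 8 tested members (above the dotted line) and 16 other tested precursors, fitted by edgeR on all 10 samples (black circles) and without cdKO replicate 5 (grey squares). Tac1 lies at 5.81 and 4.72, Gal moves from 2.05 to 0.44, and Sst and Npy change sign.

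The transcript of Calca is spliced in alternative ways, to an exon that encodes calcitonin or past it to exons that encode CGRP, the form that predominates in mature neurons. The share of the counts that falls on each is independent of the level of the gene, though the counts themselves rise with it. The gene lies on the minus strand of chromosome 7, with the calcitonin exon at chr7:114633293-114633785 (493 bases) and the CGRP exons at chr7:114632416-114632599 and chr7:114631478-114631905 (612 bases together). The calcitonin exon had 260, 375, 153, 151 and 240 counts in control samples and 233, 459, 250, 247 and 214 in cdKO samples. The CGRP exons had 23, 16, 21, 23 and 110 counts in control samples and 24, 45, 21, 32 and 15 in cdKO samples. In all 10 samples, therefore, most counts lay on the calcitonin exon. The CGRP exons took 8.13, 4.09, 12.1, 13.2 and 31.4% of these counts in control samples and 9.34, 8.93, 7.75, 11.5 and 6.55% in cdKO samples. The groups overlapped, and control replicate 5 stood above the other 9 samples. The mean share was 13.8% ± 10.49 (SD, n = 5) in the control group and 8.81% ± 1.84 (SD, n = 5) in the cdKO group, a difference of -4.98 percentage points that did not pass an exact two-sided permutation test (p = 0.389, the smallest possible being 0.00794). Without control replicate 5 the control mean was 9.38% and the difference -0.569 points.

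**Figure D4:**
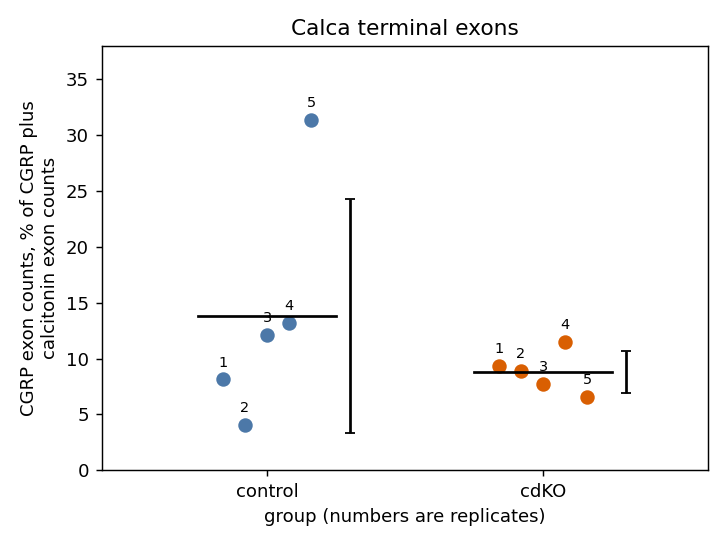
Share of CGRP exon counts in the counts on the CGRP and calcitonin exons of Calca, in %, for each control and cdKO sample (points, numbered by replicate), with the mean (line) and SD (bar) of 5 samples. Control replicate 5 lies at 31.4%, and the other 9 samples between 4.09 and 13.2%.

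The level of the members was compared per kilobase of exon bins, over all 10 samples. Gal was highest at 64.7 CPM per kilobase, followed by Sst at 14.1, Npy at 9.04, Calca at 5.30 and Adcyap1 at 2.57. Tac1 followed at 0.968, then Penk at 0.550, Cck at 0.353, Nts at 0.127 and Calcb at 0.0718. The value for Gal rests largely on the 275 CPM of cdKO replicate 5. In control samples Gal was at 25.1 CPM per kilobase, still above Sst at 13.5. In control samples alone Tac1 was at 0.0324 CPM per kilobase, below Penk (0.433) and Cck (0.211), and in cdKO samples at 1.90, below Adcyap1 (3.01). The bins of Tac1 include long pieces with no counts in any sample, and over the 1244 bases of its bins with counts, a length chosen after seeing the data, Tac1 was at 5.2 CPM per kilobase in cdKO samples, above Adcyap1, and at 2.64 over all samples, close to Adcyap1 at 2.57. Its place beside Adcyap1 is therefore not fixed by these counts. Sample by sample and over all bins, Gal lay above Sst and Penk above Cck in 10 of 10 samples, Calca above Adcyap1, Adcyap1 above Tac1 and Cck above Nts in 9, Sst above Npy in 8 and Npy above Calca in 7. Tac1 lay above Penk in 3 samples only and Nts above Calcb in 4, so that these neighbours, like Sst, Npy and Calca, did not keep one order. Since reads were counted on several bins, the order also depends on how a gene is divided: on its highest bin Adcyap1 reached a mean of 3.12 CPM, Calca 2.57 and Npy 1.66.

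Of 46 further precursors listed, 45 had a row in the counts and 16 passed the filter on low counts. Among them was Sct, at 62.8 CPM per kilobase over all samples, below Gal (64.7) alone of the members. In control samples alone Sct lay above Gal (42.4 against 25.1 CPM per kilobase). Both genes were far higher in cdKO replicate 5 than in the other samples. By edgeR's quasi-likelihood test 4 of the 16 had an unadjusted p under 0.05, all higher in cdKO samples, as had 4.17% of all genes tested, and none had a Benjamini-Hochberg adjusted p under 0.05. Of the 16 log2 fold changes 13 were positive, with a median of 1.04 beside -0.02 over all genes. Without cdKO replicate 5 the median was 0.13, and 1 gene had an unadjusted p under 0.05 and was higher, as had 0.59% of all genes in that fit. A gene that is high in 1 group only can pass the filter through that group, so that these counts are a description. In none did the groups separate. Of the other tachykinin genes, Tac2 had 1 count in each of 2 control samples and none elsewhere, and Tac4 had none.

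Nms, the precursor of neuromedin S, had the smallest p-value among them, but it passed the filter through the cdKO group in which it is high. It had 57, 0, 0, 0 and 1 counts in control samples and 191, 16, 48, 59 and 512 in cdKO samples. It was present in every cdKO sample, with replicate 5 highest, and the groups overlapped because of control replicate 1. Its log2 fold change was 4.51 with a standard error of 1.48 (edgeR's quasi-likelihood test, unadjusted p = 0.00867, Benjamini-Hochberg adjusted p = 0.939), and 2.99 without cdKO replicate 5. The other 3 had log2 fold changes of 1.34 for Pnoc, which encodes nociceptin, 1.33 for Nppb, which encodes a natriuretic peptide, and 1.11 for Agrp, all with an adjusted p of 0.939. Without cdKO replicate 5 these were 1.09, 1.04 and 0.43, each with an unadjusted p above 0.05. The precursors with the highest level per kilobase were Sct, which encodes secretin, Nucb2 and Nmb, with log2 fold changes of 0.97, -0.40 and 0.62, or 0.11, -0.41 and 0.15 without cdKO replicate 5. Sct had 20.5, 40.7, 27.4, 25.0 and 23.1 CPM in control samples and 45.8, 19.0, 29.7, 23.5 and 151 in cdKO samples, overlapping groups with cdKO replicate 5 far above the rest.

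No receptor or processing gene passed the test after adjustment, nor did any of the 17830 genes tested. Of 32 listed receptors and their accessory proteins 31 had a row and 16 were tested. By edgeR's quasi-likelihood test 0 of them had an unadjusted p under 0.05, whereas DESeq2 gave 1. Over all genes tested, 4.17% were higher and 0.824% lower at that threshold, so 0 in a list this short is near that share. The log2 fold change was positive for 10 and negative for 6 (median 0.05). Tacr1, the receptor that binds substance P, was at 0.23 with a standard error of 0.44 (log2 fold change, Benjamini-Hochberg adjusted p = 0.997). The receptors for neurokinin A and neurokinin B, Tacr2 and Tacr3, did not pass the filter. The highest of the list per kilobase were the somatostatin receptor Sstr2 (log2 fold change 0.28), the PACAP receptor Adcyap1r1 (-0.12) and the receptor partner Ramp3 (0.83, unadjusted p = 0.0544, and 0.43 without cdKO replicate 5). All 15 genes for the cutting, modification and storage of peptides were tested, and 0 had an unadjusted p under 0.05 by edgeR's quasi-likelihood test or an adjusted p under 0.05 (median log2 fold change -0.03). For 15 genes this is likewise near the share over all genes. The highest per kilobase were Scg5, the partner of a prohormone convertase, the carboxypeptidase gene Cpe and the granin gene Scg3, at 80.2 to 582, 147 to 357 and 58.7 to 129 CPM over all 10 samples. These 3 genes were present in every sample, including control replicate 5, which had no Tac1 counts.

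The marker genes of the cells that normally contain Tac1 were also measured. The 12 sensory neuron markers with a row in the counts summed to 124, 115, 52.1, 78.1 and 52.2 CPM in control replicates 1 to 5 and to 191, 55.9, 111, 89.1 and 124 CPM in cdKO replicates 1 to 5. The sums overlapped. In the cdKO group replicates 1, 3 and 5 had the highest sums and also the most Tac1. Replicate 1 was highest in the sums and replicate 5 in Tac1. Of the 10 markers tested 1 had an unadjusted p under 0.05, Prrxl1, a homeobox gene of sensory and dorsal horn neurons. Over all genes tested, 4.17% were higher and 0.824% lower at that threshold. Prrxl1 had 1.11, 0.614, 0.353, 0.434 and 0.355 CPM in control samples and 6.25, 0.583, 3.06, 4.91 and 3.05 in cdKO samples, 4 of them above every control sample. Its log2 fold change was 2.63 with a standard error of 0.58 (edgeR's quasi-likelihood test, unadjusted p = 0.000519, Benjamini-Hochberg adjusted p = 0.939), and 2.68 without cdKO replicate 5. The most abundant sensory marker, Prph, had a log2 fold change of 0.87 and is also made by other neurons. It had 131 CPM in cdKO replicate 1 and 95.4 CPM in cdKO replicate 5, most of the sum in each. Runx3, which marks proprioceptive neurons, had at most 3 counts in any sample, and Tlx3 had 0 to 2 counts in control samples and 0 to 11 in cdKO samples. In bulk samples a change in the number of cells of a type and a change in RNA per cell cannot be told apart, and the part of these markers in the Tac1 difference was not tested.

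For markers of other cells the sums overlapped between the groups. The 10 motor neuron markers summed to 672 to 799 CPM in control samples, to 605 to 856 in cdKO replicates 1 to 4 and to 392 in cdKO replicate 5. The 4 V3 interneuron markers summed to 24.0 to 99.9 CPM in control and 21.7 to 39.2 in cdKO samples. The 9 markers of dorsal and other ventral interneurons, some of which also make Tac1, summed to 1.88 to 6.0 and 2.56 to 9.63 CPM. All 4 that were tested had positive log2 fold changes (median 0.89), with 1 under an unadjusted p of 0.05, Bhlhe22 at 0.96 (edgeR, adjusted p = 0.939), which became 0.75 without cdKO replicate 5. Lbx1 had 1 count over all 10 samples. The sums were 9.6 to 32.6 and 9.5 to 27.3 CPM for 5 neural crest and glial markers, 8.68 to 18.8 and 11.3 to 21.4 CPM for 8 mesenchyme and vessel markers, and 4.80 to 10.4 and 5.15 to 38.1 CPM for 8 blood markers, with cdKO replicate 5 at 38.1 CPM. Single markers with an unadjusted p under 0.05 in these lists were the motor neuron gene Isl1, lower in cdKO samples (log2 fold change -0.83, -0.79 without cdKO replicate 5), and the mesenchyme genes Col1a2 (0.69 and 0.72) and Twist1 (2.55 and 1.49) and the globin gene Hba-a1 (1.87 and 0.79), all higher. They had adjusted p-values of 0.939 by edgeR and were chosen after their values were seen, and their part in the Tac1 difference was not tested. The sample with the most Tac1 was therefore the one with the lowest motor neuron sum and the highest blood sum, and the part of either in its Tac1 level was not tested.

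The genes whose levels were most like that of Tac1 were found by Pearson's r of log2(CPM + 0.5) over the 10 samples, which fall into the 2 groups and share depth and scaling. They were Kank4os (r = 0.961), Gm19196 (0.958), Ntf3 (0.952), D830035M03Rik (0.940) and Gm14327 (0.933). Ntf3, the only one of the 5 with a well-known product, encodes neurotrophin 3. It had 8.69, 6.70, 6.54, 4.83 and 4.75 CPM in control samples and 15.7, 6.99, 14.2, 11.3 and 33.2 in cdKO samples, and it was highest in cdKO replicate 5 like Tac1. Among the members, Cck (0.795), Gal (0.780) and Penk (0.753) were nearest to Tac1 over the 10 samples, and Sst (0.421) and Calca (0.260) farthest. These values include the difference between the groups by which Tac1 was chosen, so they are a description. Over the 5 cdKO samples alone the order was another, with Npy, Gal and Sst nearest, Penk and Cck behind them and Calca farthest. By r, Cck, Gal and Penk ranked only 1015, 1208 and 1570 among the genes tested, so that many other genes were nearer.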

How the data were processed

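YFP-positive e10.5 cells of 5 control and 5 cdKO samples were analysed, grouped by the sample labels. The authors deposited raw counts per exon bin for each sample, not normalized. Per the labels, reads were processed with bcl2fastq 2.17, Trimmomatic 0.36, STAR 2.5.2b, Subread 1.5.2 and DESeq2 against GRCm38, and the annotation release is not given in the sources used here. The labels name a NEBNext Ultra kit and the study's methods an ultra-low input library. The stage in the titles and growth protocol was used, since the sample descriptions differ from it.

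The 425461 bins carry 49644 gene identifiers, of which 49384 are in GENCODE M21. Bins were summed per gene, and 3987 bins shared by genes, with 1.24% of the counts, were left out, which gave 48964 genes. Counts were not recorded by strand, and uneven coverage along a gene can alter its sum. Low genes were removed by filterByExpr of edgeR 4.0.16 (minimum count 10, R 4.3.3). After TMM scaling, the quasi-likelihood test of edgeR compared the groups, with Benjamini-Hochberg adjustment over all 17830 genes and a threshold of 0.05. The common biological coefficient of variation was 0.539. The CGRP exon share was compared by an exact permutation test over 252 arrangements (Python 3.11.15). The fits were tested on simulated counts.

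The members and lists were chosen with earlier results of these data known. Besides the 10 members, the text names, from the lists of other precursors, receptors and processing genes, those with an unadjusted p under 0.05 or separate groups and the 3 highest per kilobase. It also names the 5 genes most like Tac1, markers that are most abundant, absent or move with Tac1, and the Onecut genes. Tac2, Tac4, Tacr1, Tacr2 and Tacr3 were added after their values were seen, as the rest of the tachykinin family. Alternatives were DESeq2's size factors, library size only, no filter, the DESeq2 1.42.0 Wald test, limma-voom (limma 3.58.1), the highest bin per gene, omission of each sample, and a block for the replicate number. No 2 samples of a group were duplicates (chi-square per degree of freedom 110.8 to 1735.2 over 20 pairs). Not every gene examined by these rules is reported here.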

Additional observations from a re-analysis of the deposited data

Results flagged for a closer look

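In groups of 5 samples, a sample was singled out when its gap to the nearest other sample exceeded 0.71 of the range of the group. Over the 54 groups examined, of the members and the other named genes, this occurred in 12, where chance alone would give about 2.7 (1 in 20), and 9 of the 12 concern cdKO replicate 5. Groups measured in the same samples are not independent of each other.

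Among the members, cdKO replicate 5 was high for Tac1 at 20.2 CPM (other cdKO samples 1.01 to 5.55), for Sst at 22.2 CPM (3.45 to 7.09) and for Gal at 275 CPM (11.3 to 45.6). In Calca it was cdKO replicate 2 that stood out, at 14.5 CPM against 8.42 to 9.5. In Calcb cdKO replicate 4, with 0.0358 CPM, was the only cdKO sample with counts, and these were 3.

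Among the other precursors, cdKO replicate 5 was high for Nms at 10.1 CPM (0.190 to 2.43), Agrp at 9.56 CPM (1.24 to 3.04), Sct at 151 CPM (19.0 to 45.8) and Nmb at 7.51 CPM (1.96 to 3.14). Nms was also high in control replicate 1, at 0.572 CPM against 0 to 0.0148 in the other control samples. The receptor partner Ramp3 at 13.0 CPM (4.02 to 6.49) and the targeted gene Onecut2 at 19.2 CPM (1.35 to 6.50) were high in cdKO replicate 5 as well. This sample also had fewer bins with counts and higher values for genes with few exon bases. Not all of the flagged genes are short: Tac1 has 3399 bases of exon bins and Onecut2 13391. Tac1 was 2.82 higher in this sample than in the mean of the other cdKO samples on the log2 scale. Tested genes of 2000 to 4000 bases were a median of 0.29 lower in it (log2 difference -0.29). The part of bins or gene length in these levels was not tested.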

How the results depend on the processing

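The log2 fold change of Tac1 stayed between 4.72 and 6.28 over 17 alternatives, and no other member had an adjusted p under 0.05 in any of them. Scaling by library size alone took the median over all genes from -0.02 to -0.15 (log2). The number of genes with an adjusted p under 0.05, 0 by edgeR, was 1 when scaled by library size, 1 with no filter, 19 by DESeq2 and 3 by limma-voom, and 0 to 4 with each sample left out (4 without control replicate 5 and 1 without cdKO replicate 5). The share of genes higher at an unadjusted p under 0.05, 4.17%, became 2.14% with library size only and 0.909% by limma-voom, and 0.59 (without cdKO replicate 5) to 6.22% with each sample left out. The share of lower genes, 0.824%, became 1.41%, 2.86% with no filter and 1.55% by DESeq2, and 0.459 (without control replicate 4) to 1.96% (without control replicate 2) with each sample left out. The 2 members other than Tac1 at an unadjusted p under 0.05 became 1 with library size only, limma-voom or the highest bin and 0 to 3 with each sample left out (0 without cdKO replicate 5). The 4 other precursors became 1 with library size only, limma-voom or the highest bin, 7 with no filter, and 1 to 6 with each sample left out. The 0 receptors became 2 with no filter, 1 by DESeq2 and 0 to 1 with each sample left out, and the 0 processing genes became 0 to 2. The log2 fold change of Sst turned negative with library size only (-0.14), limma-voom (-0.08) and the highest bin (-0.08) and ranged from -0.56 to 0.33 with each sample left out. That of Npy was -0.02 with limma-voom and -0.20 to 0.72 with each sample left out. The share of CGRP exons differed by -7.40 to -0.569 points with each sample left out and by -4.29 points on the highest bins, an alternative chosen after seeing the data. The causes were not tested.

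Samples with the same replicate number deviated together in some pairs and not in others (correlations 0.095, -0.317, 0.165, 0.428 and 0.361, mean 0.146 against -0.016 between other numbers), and 2 of 5 correlated best with their own number, so the numbers were not treated as pairs. With the replicate number as a block, 1.63% of genes were higher and 0.965% lower at an unadjusted p under 0.05, as were 1 member other than Tac1 and 2 other precursors. In that fit 0 genes had an adjusted p under 0.05, and the log2 fold changes were 5.21 for Tac1, -0.01 for Sst and -0.11 for Npy. With counts near 0, Calcb, Nts and most listed precursors could not be compared at this depth.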

Other observations

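Several precursors that did not pass the filter on low counts had their counts mainly in 1 or 2 samples. Ghrh, which encodes growth hormone-releasing hormone, had 148 counts in cdKO replicate 5, 62 in control replicate 2 and at most 22 elsewhere. Grp, which encodes gastrin-releasing peptide, had 85 counts in cdKO replicate 5 and at most 19 elsewhere, and Npb had 64 in cdKO replicate 5 and at most 10 elsewhere. Vip, the precursor of vasoactive intestinal peptide, had 0 counts in all 10 samples. These genes were chosen after their values were seen. Over the 5 cdKO samples alone, the genes whose levels were most like that of Tac1 were Ppp1r14a, Gm17455, R3hdml, Nenf and 2210008F06Rik, too few samples for a correlation to be given.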
